A study of Mus musculus with 6 samples.

Results

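The 38 genes described here encode the Notch pathway and the basic helix-loop-helix (bHLH) factors of neurogenesis, together with the Id genes. They were taken by name: 4 receptors, 5 ligands, 3 Fringe enzymes, 3 genes of receptor cleavage, 3 signal regulators, 4 genes of the nuclear complex, 6 Hes and Hey genes, 6 proneural genes and 4 Id genes. Each gene was represented by the probe set with a single gene symbol in the array's annotation and, where there was more than 1, by that of highest mean. All 38 had such a probe set, out of 19938 genes measured in the series.

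The samples are enterospheres, clusters of cells that form in suspension when dissociated gut muscle of newborn C57BL/6 mice is cultured with growth factors. Every sample pooled the guts of 3 mice aged up to 12 hours, and the labels name no genetic change in any group. All cells were expanded with EGF and FGF for 4 days and, as picked spheres, for another 5 days, and then kept for 1 day in a differentiation medium whose listed components include neither factor. The T3 group (3 samples) was then kept for 1 day with triiodothyronine at 100 nM (the labels write nm, read here as nM), and the control group (3 samples) for 1 day without it. The expansion medium of both groups held B27, a supplement that is known to contain T3 itself. Nothing in the labels says whether samples of a group came from separate preparations, so each p-value reflects only how these samples vary, which may in part be technical. Since spheres were measured whole, fewer cells of a type and less RNA per cell cannot be told apart.

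The values are log2 expression levels, 1 array per sample, and array medians over the genes tested lay between 6.93 and 7.0. The T3-responsive genes Klf9 and Hr rose by 1.86 and 1.92 on the log2 scale, on every T3 array above every control array. Markers of the labelled neural progenitors were present, with a mean log2 level of 10.37 to 10.49 on control arrays over 6 progenitor and glia markers (Sox10, Erbb3 and Ret among them) and 10.17 to 10.36 over 6 neuron markers. So were 5 fibroblast markers, at 10.88 to 10.96. Of 4 leukocyte markers, control means ran from 4.89 (Ptprc) to 6.15 (Cd68), and of 4 epithelial markers from 4.37 (Epcam) to 7.15 (Krt8), where the lower quartile of the arrays was 4.98 to 5.16. Ptprc and Epcam thus lay below that quartile and Cd68 and Krt8 above it, and the part of such cells in the results was not tested.

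In Notch signalling, a Delta or Jagged ligand on one cell binds a Notch receptor on its neighbour, the receptor is cut by ADAM proteases and gamma-secretase, and its intracellular part joins Rbpj and Mastermind-like proteins on DNA to switch on Hes and Hey repressors. These hold back proneural bHLH factors, so that the pathway is known for keeping neural progenitors, those of the enteric nervous system included, from becoming neurons all at once. Id proteins have the helix-loop-helix but no DNA-binding region and tie up the E proteins that proneural factors need as partners.

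With T3, 4 of the 38 genes changed. Notch2, the Notch effector gene Hey1 and the proneural gene Neurod4 fell, Id2 rose, and the other 34 did not pass the test (limma, called at an adjusted p under 0.05 over all genes). The share of members called was 10.5%, against 3.10% of all genes. For falls it was 3 of 38, against 0.823% of all genes, and for rises 1 of 38, against 2.28%. The changes were small, from 1.28-fold for Notch2 to 1.64-fold for Neurod4. The groups of 3 arrays did not overlap for 17 members, 44.7%, of which 7 were higher and 10 lower with T3, where 19.5% of all genes had groups that did not overlap. An unadjusted p under 0.05 was reached by 13 members, 34.2%, against 13.7% of all genes. The median log2 change was -0.026 over the members and 0.0088 over all genes, and the members' median turned to 0.0034 when arrays were centred on the median of all probe sets. These shares and medians describe the list and are no test of it. The plot of log2 changes with their intervals shows the changes on both sides of 0, with values of either sign in 8 of the 9 roles.

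**Figure D1:**
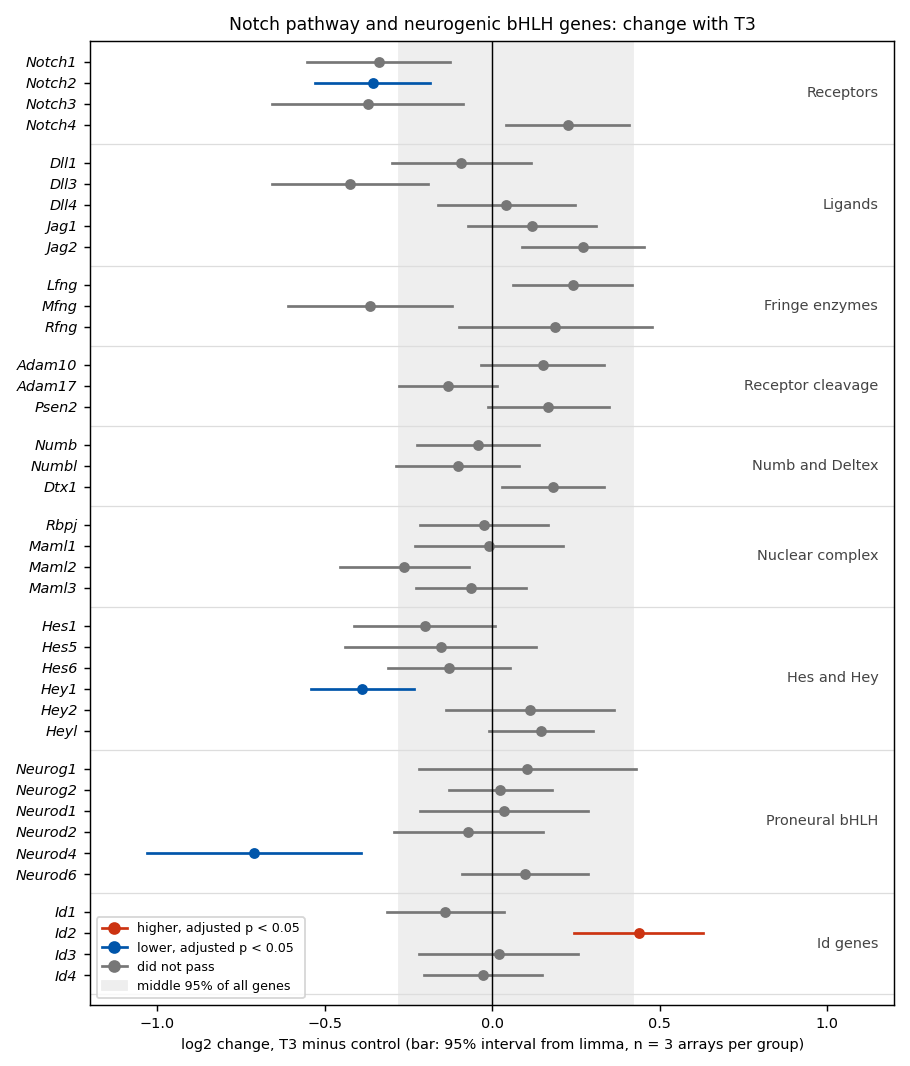
Log2 change with T3 (x axis, T3 minus control) of the 38 genes, grouped by role; points are limma estimates, bars their 95% intervals from 3 arrays per group, and the grey band the middle 95% of all 19938 genes, from -0.28 to 0.42. Notch2, Hey1 and Neurod4 (blue) lie below the band and Id2 (red) just above it, and Notch1, Notch3, Dll3 and Mfng lie below it without passing the test.

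The 250 bases before the annotated start of the genes that changed are shown, for the 3 that the promoter table holds, beside that of Hes5, a textbook Notch target that did not pass the test. Capitals mark matches, on either strand, to the core of the RBPJ motif (TGGGAA), to the thyroid hormone receptor half-site (AGGTCA) and to the E-box (CANNTG), the element of bHLH dimers. Sequences are from RefSeq, build GRCm38.p6, and are written in the direction of the gene. Neurod4 has 2 annotated starts with overlapping windows and the one farther upstream is printed.
Notch2, chr3:98013288-98013537 (plus strand): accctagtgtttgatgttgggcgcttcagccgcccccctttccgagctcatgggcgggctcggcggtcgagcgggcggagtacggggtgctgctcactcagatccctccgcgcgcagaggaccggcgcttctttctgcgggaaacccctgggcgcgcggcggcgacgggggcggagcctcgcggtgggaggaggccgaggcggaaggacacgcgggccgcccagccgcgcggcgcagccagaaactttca
Neurod4, chr10:130280255-130280504 (minus strand): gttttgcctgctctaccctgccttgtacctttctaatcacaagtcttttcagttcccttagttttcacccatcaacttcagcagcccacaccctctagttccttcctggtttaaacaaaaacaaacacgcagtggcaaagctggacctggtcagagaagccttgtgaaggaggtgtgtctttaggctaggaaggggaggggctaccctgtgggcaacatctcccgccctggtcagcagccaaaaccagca
Id2, chr12:25096093-25096342 (minus strand): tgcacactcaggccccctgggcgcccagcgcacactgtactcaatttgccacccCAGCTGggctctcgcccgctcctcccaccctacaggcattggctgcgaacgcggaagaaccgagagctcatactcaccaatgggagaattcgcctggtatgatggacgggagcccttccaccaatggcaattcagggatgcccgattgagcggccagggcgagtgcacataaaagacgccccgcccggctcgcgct
Hes5, chr4:154960673-154960922 (plus strand): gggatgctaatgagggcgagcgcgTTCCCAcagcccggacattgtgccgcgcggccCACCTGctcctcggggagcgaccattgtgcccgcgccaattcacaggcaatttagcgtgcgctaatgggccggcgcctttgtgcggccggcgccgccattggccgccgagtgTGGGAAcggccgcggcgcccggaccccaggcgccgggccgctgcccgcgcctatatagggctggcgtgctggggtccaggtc

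The Notch2 window and both Neurod4 windows held none of the 3 motifs, and that of Id2 held 1 E-box, 196 bases before the start. Hes5 had an RBPJ core at 226 and at 82 bases before its start, in opposite orientations, and an E-box at 194. Of the 33 members in the promoter table, 8 had an RBPJ core in at least 1 window (Hes5, Hey2, Id4, Lfng, Maml2, Maml3, Psen2 and Rbpj). None of the 8 was called, but only 3 called genes (Notch2, Neurod4 and Id2) had a window, too few to compare. Hey1, the called Notch effector gene, had no window there, nor had Hes1 and Heyl. Whether these genes hold an RBPJ core was therefore not seen. By window, 9 of 41 held the core, against 21.6% of all 32851 promoter windows. The half-site was in 5 of 41 windows, against 14%, and the E-box in 25 of 41, against 66.2%. A match of so few letters is a description and not a bound site, and a window without one says nothing of the factor.

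Among the receptors, 1 of 4 passed the test. Notch2, widely expressed in progenitors (probe set 10494595), had log2 levels of 9.66, 9.59 and 9.53 on the control arrays and 9.33, 9.17 and 9.22 on the T3 arrays. Every T3 array was below every control array. The log2 change was -0.36 ± 0.08 (SE), with a 95% interval of -0.53 to -0.19 and adjusted p = 0.0427 (limma). This call stood close to the threshold and was lost without any 1 array, with adjusted p from 0.0534 to 0.202.

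Notch1, the main receptor of neural progenitors, read 11.02, 10.80 and 10.90 in controls and 10.72, 10.47 and 10.50 with T3. The groups did not overlap, and the log2 change of -0.34 ± 0.09 (SE) was close in size to that of Notch2 but did not pass (adjusted p = 0.114). Notch3, known for its role in mural cells of blood vessels, read 7.41, 7.48 and 7.75 in controls and 7.41, 7.02 and 7.09 with T3. Its lowest control array and highest T3 array were nearly equal, and its log2 change of -0.37 ± 0.13 (SE) had adjusted p = 0.201. Notch4, a receptor of endothelium, was the only receptor with a value above 0. It read 6.76, 6.63 and 6.81 in controls and 7.05, 6.96 and 6.87 with T3, which put its log2 change at 0.23 ± 0.08 (SE), adjusted p = 0.235.

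All 4 receptors thus had groups that did not overlap, 3 of them lower with T3, where 19.5% of all genes had such groups, and for Notch3 the nearest arrays of the 2 groups both read 7.41. Whether Notch2 differed from its family was tested on the within-array difference between Notch2 and the mean of the other 3 receptors. It changed by -0.20 on the log2 scale, from 1.2 ± 0.14 (SD, n = 3) to 1.01 ± 0.06 (SD, n = 3), with p = 0.20 in an exact two-sided permutation test, whose smallest possible value here is 0.10, and 0.20 adjusted over 3 such tests. That Notch2 passed and Notch1 did not does not show a difference between them.

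Cell types that carry Notch3 and Notch4 had marker genes that moved both ways. Of 8 endothelial markers, Kdr and Egfl7 fell by 0.41 and 0.70 on the log2 scale and 6 did not pass, Cdh5 among them, which read 6.24, 7.21 and 6.80 on the T3 arrays against 6.26 to 6.39 in controls. Their mean log2 level was 6.11 to 6.31 on control arrays and 6.06 to 6.30 on T3 arrays, and the lowest was Tek at 4.59 in controls. Of 5 pericyte markers, Kcnj8 and Abcc9 rose by 1.04 and 0.41 and Cspg4 fell by 0.48, with a mean level of 8.51 to 8.6 in controls and 8.73 to 8.79 with T3. Of 6 smooth muscle markers, 1 rose (Myh11) and 2 fell (Acta2 and Tagln). The share called was 25% of the endothelial, 60% of the pericyte and 50% of the smooth muscle markers, against 3.10% of all genes. The part of these cells in the receptors' values was not tested.

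**Figure D2:**
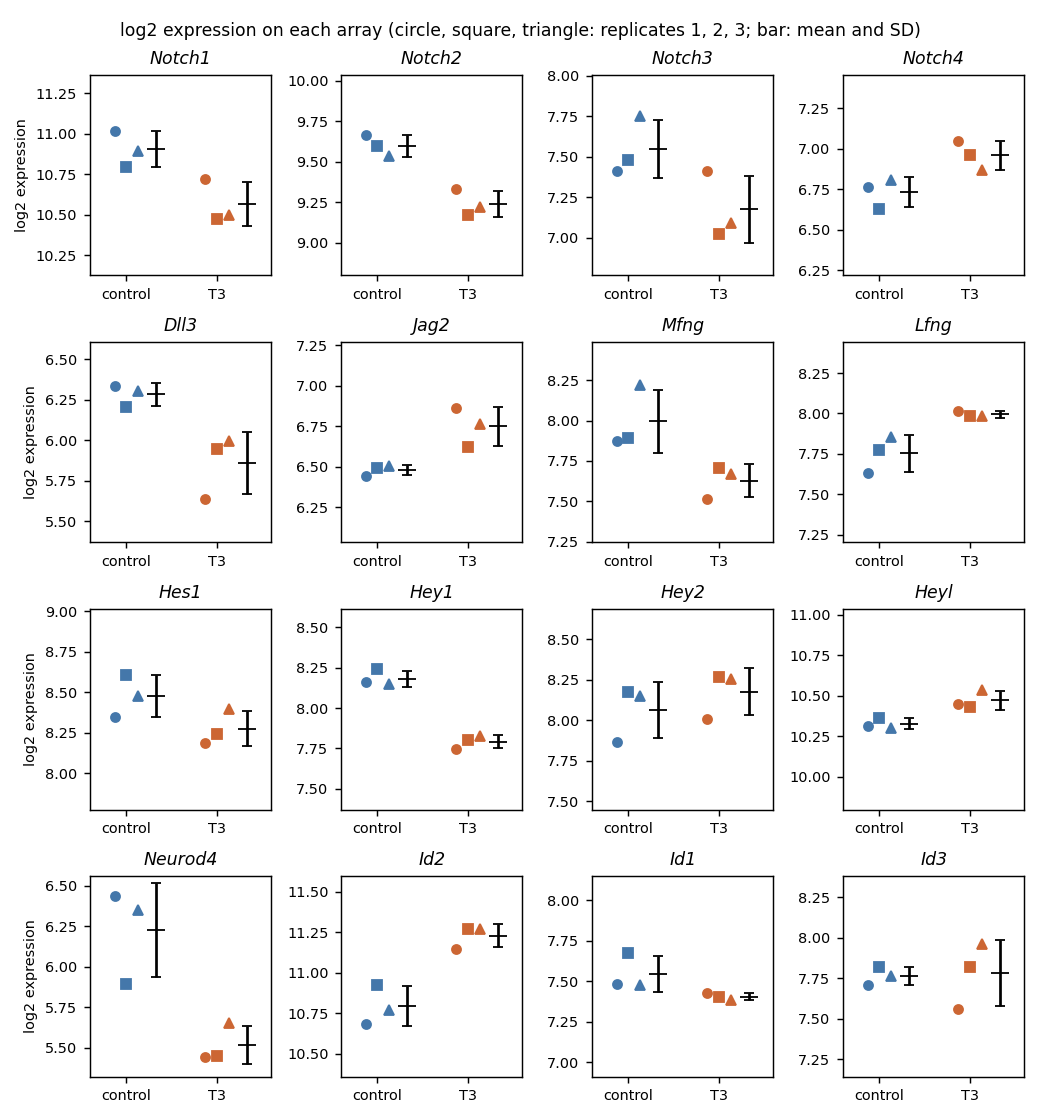
Log2 expression (y axis) of 16 of the genes on each array; circles, squares and triangles are replicates 1, 2 and 3 of control (blue) and T3 (orange), and the bar gives the mean and SD of 3 arrays. Each panel spans the same log2 range. Notch2, Hey1, Neurod4 and Id2 separate by group, as do Notch1, Notch4, Dll3, Jag2, Mfng, Lfng, Heyl, Id1 and, barely, Notch3. The arrays of Hes1, Hey2 and Id3 overlap.

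No ligand passed the test. Dll3, a divergent Delta that acts inside the cell that makes it and does not activate Notch on a neighbour, had the largest value, with log2 levels of 6.34, 6.20 and 6.31 in controls and 5.64, 5.94 and 5.99 with T3. The groups were apart, with T3 replicate 1 lowest, and the log2 change was -0.42 ± 0.10 (SE) with adjusted p = 0.0719. Jag2 stood on the other side, at 6.44, 6.49 and 6.51 in controls and 6.86, 6.62 and 6.77 with T3, which put its log2 change at 0.27 ± 0.08 (SE), adjusted p = 0.140. Dll1, the ligand of committed neuroblasts, had a change of -0.092, with a 95% interval of -0.30 to 0.12. Jag1 had one of 0.12 (interval -0.07 to 0.31) and Dll4, a ligand of endothelium, one of 0.041 (interval -0.16 to 0.25), and the arrays of these 3 genes overlapped between the groups.

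The Fringe enzymes add a sugar to Notch that shifts its response between Delta and Jagged ligands, and none of the 3 passed. Their values lay on both sides of 0. Mfng read 7.87, 7.89 and 8.22 in controls and 7.51, 7.70 and 7.67 with T3, which put its log2 change at -0.37 ± 0.11 (SE), adjusted p = 0.137. Lfng read 7.63, 7.78 and 7.86 in controls and 8.02, 7.98 and 7.98 with T3, which put its log2 change at 0.24 ± 0.08 (SE), adjusted p = 0.182. Both had groups that did not overlap. Rfng, at 0.19 ± 0.13 (SE), overlapped, with control replicate 3 the highest of the 6 arrays.

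Genes of receptor cleavage and of signal regulation had small values and none passed. Adam10, the protease of the ligand-induced cut, had a log2 change of 0.15, and its relative Adam17 one of -0.13, each with groups that did not overlap. Psen2, a catalytic subunit of gamma-secretase, had one of 0.17. The changes of Numb and Numbl, inhibitors of Notch, were -0.042 and -0.10, with arrays that overlapped. Dtx1, a ubiquitin ligase that binds Notch, read 8.86, 8.84 and 8.78 in controls and 9.05, 8.99 and 8.98 with T3, which put its log2 change at 0.18 ± 0.07 (SE), adjusted p = 0.252. These 6 genes had adjusted p from 0.252 to 0.916.

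The nuclear complex gave no call. Rbpj, the DNA-binding partner of the Notch intracellular part, had a log2 change of -0.026 with a 95% interval of -0.22 to 0.17. Its second probe set, 10521911, gave 0.048 from a control level of 4.33, below the lower quartile of every array. Among the Mastermind-like coactivators, Maml2 read 9.82, 9.88 and 9.61 in controls and 9.50, 9.54 and 9.48 with T3, all T3 arrays being lower. Its log2 change was -0.26 ± 0.08 (SE) with adjusted p = 0.180, and its second probe set gave -0.21. Maml1 and Maml3 had changes of -0.0095 and -0.064, with overlapping arrays.

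Of the 6 Hes and Hey genes, Hey1 fell. Hey1, a repressor that Notch switches on (probe set 10497203), had log2 levels of 8.16, 8.24 and 8.15 on the control arrays and 7.75, 7.80 and 7.83 on the T3 arrays. The groups lay well apart, and the spread within each was small, with an SD of 0.050 in controls and 0.042 with T3. The log2 change was -0.39 ± 0.07 (SE), a 1.31-fold lower level, with a 95% interval of -0.54 to -0.23 and adjusted p = 0.0214 (limma). The call held without control replicate 2 or 3 (0.0450 and 0.0444) and was lost without T3 replicate 1, 2 or 3 (0.0631, 0.0876 and 0.0752) or control replicate 1 (0.0961).

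The other effectors did not pass. Hes1, a canonical Notch effector, read 8.35, 8.6 and 8.48 in controls and 8.18, 8.24 and 8.40 with T3, which overlapped, and changed by -0.20 ± 0.09 (SE) on the log2 scale, adjusted p = 0.388. Hes5, of neural progenitors, had a change of -0.15 ± 0.12 (SE), and its control arrays ran from 6.93 to 7.44 around the T3 arrays. Hes6, which opposes Hes1 and accompanies neuronal differentiation, had one of -0.13. Hey2 and Heyl had values above 0, at 0.11 and 0.14, and for Heyl the 3 T3 arrays (10.43 to 10.53) were above the 3 control arrays (10.30 to 10.37), with adjusted p = 0.410.

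Hey1 and its closest relatives thus lay on opposite sides of 0. The within-array difference between Hey1 and the mean of Hey2 and Heyl changed by -0.52, from -1.01 ± 0.08 (SD, n = 3) in controls to -1.53 ± 0.04 (SD, n = 3) with T3. The groups did not overlap, and p = 0.10 in the exact two-sided permutation test, the smallest value that 3 against 3 arrays allow (0.15 adjusted over 3 such tests). The difference did not pass, in a design that could not have let it pass.

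Of the 6 proneural genes, Neurod4 fell. Neurod4, a bHLH factor of early neurons (probe set 10373680), had log2 levels of 6.44, 5.89 and 6.35 on the control arrays and 5.45, 5.45 and 5.65 on the T3 arrays. Control replicate 2 lay between the other controls and the T3 arrays, and the groups did not overlap. The log2 change of -0.71 ± 0.14 (SE) was the largest of the 38 genes, a 1.64-fold lower signal with a 95% interval of -1.03 to -0.39 and adjusted p = 0.0333 (limma). The probe set was dim, as its means of 6.23 in controls and 5.52 with T3 were below the array medians of 6.93 to 7.0. Whether its signal was above background is not known without detection calls. Without control replicate 2 the change was -0.88 with adjusted p = 0.00362. The call was lost without T3 replicate 1, 2 or 3 (0.115, 0.122 and 0.0669) and without control replicate 1 or 3 (0.140 and 0.0957).

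The other proneural genes did not pass. Neurog1 and Neurog2, the neurogenins of sensory and central neurons, had log2 changes of 0.10 (95% interval -0.22 to 0.43) and 0.024 (interval -0.13 to 0.18). Neurod2 had one of -0.072, Neurod1 one of 0.035 and Neurod6 one of 0.097. Neurod1 and Neurod6 read 3.38 ± 0.21 (SD, n = 3) and 3.53 ± 0.09 (SD, n = 3) in controls, under the lower quartile of every array. Without detection calls it is not known whether they, or the other dim genes, were above background.

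Of the 4 Id genes, Id2 rose. Id2, an inhibitor of bHLH dimers (probe set 10399691), had log2 levels of 10.68, 10.93 and 10.77 on the control arrays and 11.15, 11.27 and 11.27 on the T3 arrays. All T3 arrays were above all control arrays. The log2 change was 0.44 ± 0.08 (SE), a 1.35-fold higher level with a 95% interval of 0.24 to 0.63 and adjusted p = 0.0313 (limma). The call held without control replicate 2 (0.0187) and was lost without T3 replicate 1, 2 or 3 (0.0545, 0.127 and 0.125) or control replicate 1 or 3 (0.145 and 0.0833).

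Id1, Id3 and Id4 did not pass, with log2 changes of -0.14, 0.018 and -0.027 and 95% intervals of -0.32 to 0.04, -0.22 to 0.26 and -0.20 to 0.15. The within-array difference between Id2 and the mean of the other 3 changed by 0.49, from 3.32 ± 0.07 (SD, n = 3) in controls to 3.81 ± 0.06 (SD, n = 3) with T3. The groups did not overlap, and p = 0.10 in the exact two-sided permutation test, again the smallest possible value (0.15 adjusted over 3 such tests). This difference did not pass either and could not have passed. Id2, like Notch2 and Hey1, was set against its family with earlier results of these data known, so the lack of overlap is no separate support.

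The map of deviations from the gene mean places these differences by array. The 3 control columns and the 3 T3 columns differ in sign throughout the rows of Notch2, Hey1, Neurod4 and Id2. The median deviation of the members was between -0.029 and 0.023 on each of the 6 arrays. The pooled SD within groups had a median of 0.10 over the members and 0.11 over all genes, and was highest among the members for Neurog1, at 0.23.

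**Figure D3:**
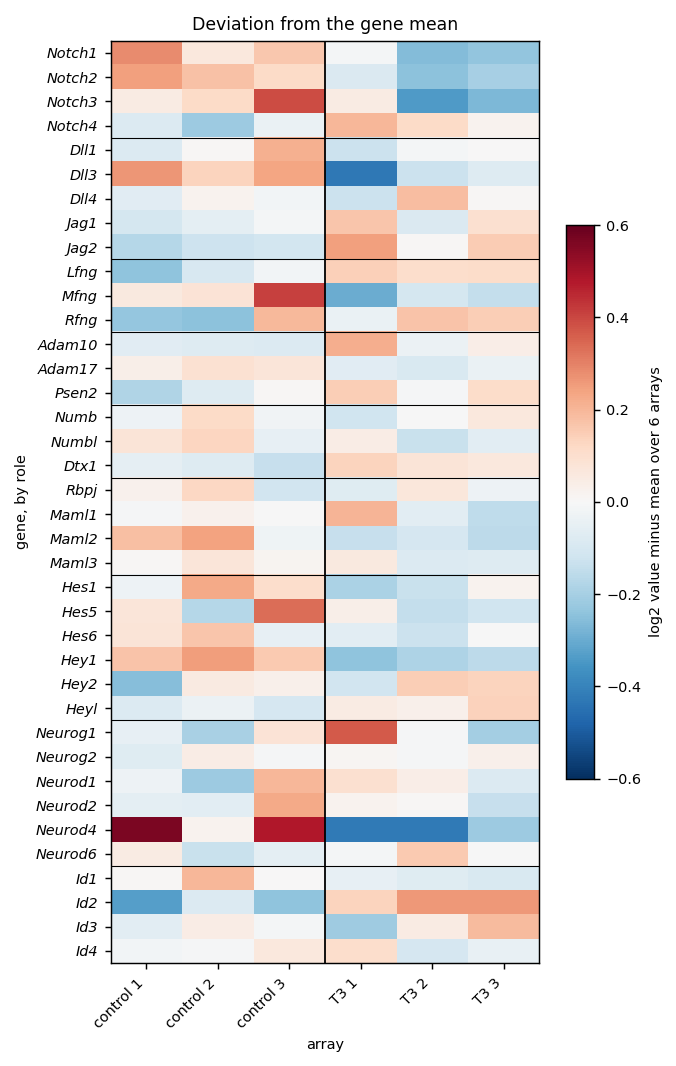
Log2 value minus the gene's mean over the 6 arrays (colour, blue below and red above) for each of the 38 genes (rows, by role) and each array (columns, 3 control and 3 T3). Notch1, Notch2, Dll3, Hey1 and Neurod4 are redder on the control arrays and Id2 on the T3 arrays. The groups also did not overlap for Notch3, Mfng, Adam17, Maml2 and Id1, lower with T3. The same held for Notch4, Jag2, Lfng, Adam10, Dtx1 and Heyl, higher with T3. In all other rows the groups overlap.

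The calls of the 4 genes depended on which arrays were fitted. Notch2 lost its call without any 1 array, Hey1 kept it in 2 of 6 such fits, and Neurod4 and Id2 in 1 of 6 each. The number of members called was 0 without T3 replicate 1, T3 replicate 2, T3 replicate 3 or control replicate 1. It was 3 without control replicate 2 (Hey1, Neurod4 and Id2) and 1 without control replicate 3 (Hey1). Over the same fits the calls among all genes ran from 134 higher and 57 lower without control replicate 1 to 516 higher and 124 lower without control replicate 2, against 454 and 164 with all arrays. In these fits the log2 change of Neurod4 ran from -0.88 to -0.61, that of Notch2 from -0.40 to -0.32, that of Hey1 from -0.41 to -0.36 and that of Id2 from 0.38 to 0.50. As their groups did not overlap, their sign had to hold in these fits.

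**Figure D4:**
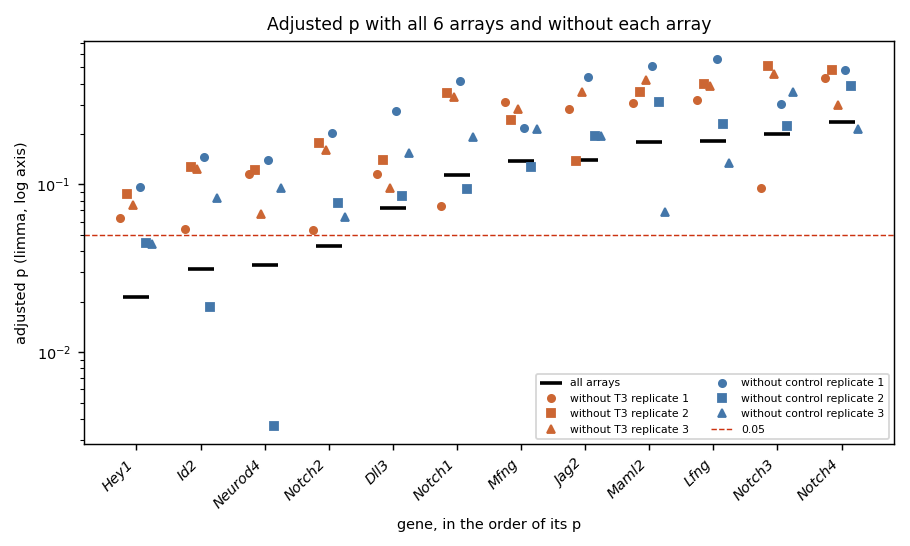
Adjusted p (limma over all genes, y axis, log scale) of the 12 members with the smallest p, with all 6 arrays (black bars) and without each array in turn (orange, a T3 array left out; blue, a control array). Hey1, Id2, Neurod4 and Notch2 have black bars under the dashed line at 0.05, and Hey1, Id2 and Neurod4 have points under it, at most 2 of 6.

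Of 98 further genes of the pathway, listed by role and chosen with earlier results of these data known, 92 had a probe set of their own name. Among them 2 rose, 5 fell and 85 did not pass, with a median log2 change of -0.018, and 7.61% were called against 3.10% of all genes. Of the 7 calls, 4 were among genes of new neurons, 2 among other bHLH genes and 1 among ligands and trafficking genes. None of 9 further genes of cleavage and glycosylation was called, with changes from -0.13 (Psenen, a gamma-secretase subunit) to 0.13 (Poglut1, which puts glucose on Notch). None of 17 coactivators and corepressors was called either. Of these, 14 had a change below 0, all small, and the largest change was 0.27 for the acetyltransferase gene Kat2b (adjusted p = 0.0661). None of 14 further Notch targets passed, where Bhlhe40, a bHLH repressor that acts on the circadian clock, had the lowest, a change of -0.285 (adjusted p = 0.155).

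Of 16 other ligands and trafficking genes, Dner rose. Dner, a transmembrane protein with Delta-like repeats found on neurons (probe set 10356177), read 8.55, 8.72 and 8.57 in controls and 9.42, 9.16 and 9.19 with T3. The groups were clearly apart, with a log2 change of 0.64 ± 0.09 (SE), a 1.56-fold higher level, and adjusted p = 0.00912 (limma). The call was lost without control replicate 1 alone (0.0576). Dtx3l and Dtx4, relatives of Dtx1, had changes of 0.29 and 0.22 and did not pass (adjusted p = 0.0947 and 0.149). Of 6 neuron markers, Prph rose by 0.94 and Snap25 by 0.33 on the log2 scale and 4 did not pass. That is 33.3% called, against 3.10% of all genes. The mean level of the 6 was 10.17 to 10.36 on control arrays and 10.49 to 10.54 on T3 arrays. The part of neuron number in the level of Dner was not tested.

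Among 21 other bHLH genes, Hand1 rose and Twist1 fell. Hand1, a factor of sympathetic neurons and of mesenchyme, changed by 0.37 ± 0.07 (SE) on the log2 scale, adjusted p = 0.0354, and Twist1, a mesenchymal factor, one of -0.49 ± 0.09 (SE) with adjusted p = 0.0285. Each passed in 1 of the 6 fits without 1 array, with adjusted p of up to 0.174 and 0.117. Olig2, at -0.28, and Atoh8, at 0.30, did not pass (adjusted p = 0.118 and 0.137).

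Of 15 genes that mark new neurons or lie downstream of proneural factors, 4 fell and none rose, with a median log2 change of -0.20. That is 26.7% called, where 3.10% of all genes were called and 0.823% fell, in a list chosen with earlier results of these data known. Sox11, a transcription factor of immature neurons, read 8.37, 8.48 and 8.47 in controls and 7.19, 7.22 and 7.28 with T3. Every T3 array was far below the controls, a 2.31-fold lower level with a log2 change of -1.21 ± 0.07 (SE), adjusted p = 0.000176 (limma). Ebf2 read 7.10, 7.26 and 7.45 in controls and 6.29, 6.56 and 6.56 with T3, which put its log2 change at -0.80 ± 0.11 (SE), adjusted p = 0.00847 (limma), and both passed without any 1 array. Insm1, a zinc finger factor of neuronal and endocrine precursors, fell by 0.37, passing in 1 of 6 fits without 1 array (adjusted p up to 0.0982). Dcx, a microtubule protein of migrating neurons, fell by 0.36, passing in 0 of 6 (up to 0.177). Stmn2, 1 of the 15, is also among the 6 neuron markers, of which Prph and Snap25 rose. Stmn2 itself had a log2 change of 0.25 and did not pass (limma, adjusted p = 0.178), with every T3 array above every control array. Whether the changes of the 15 genes were related to the fall of Neurod4 was not tested.

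**Figure D5:**
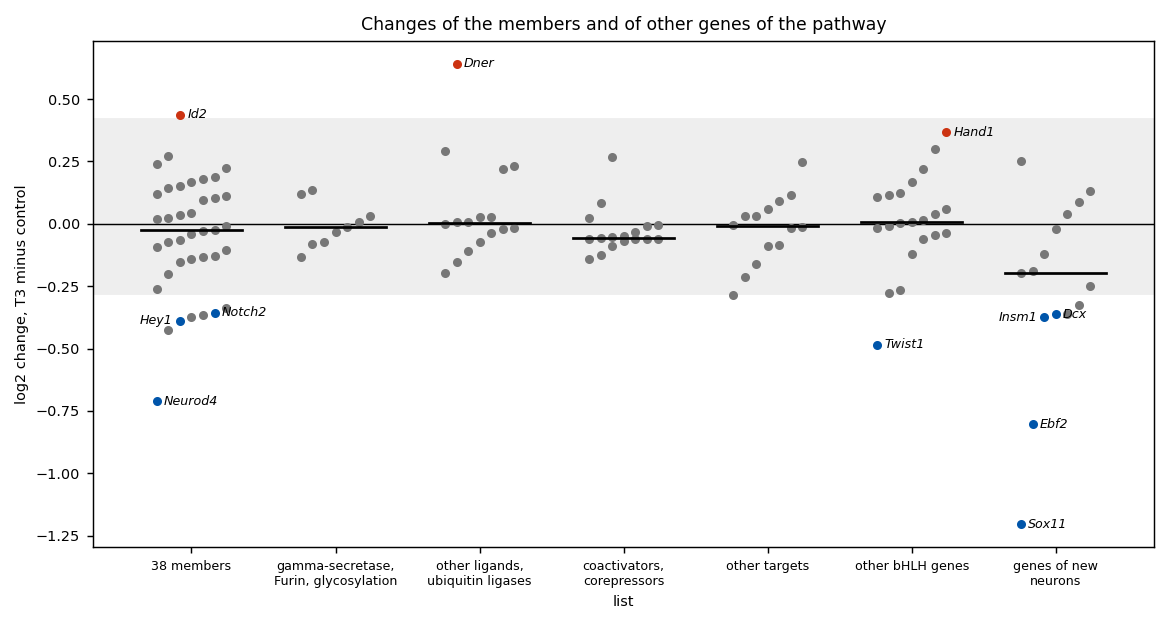
Log2 change with T3 (y axis) of the 38 members and of 92 further genes in 6 lists (x axis); each point is a gene, the black line the list's median, the grey band the middle 95% of all genes, and named points passed the test (red higher, blue lower). Called genes of the further lists are Dner, Hand1, Twist1, Insm1, Dcx, Ebf2 and Sox11, and the lists of cleavage genes, cofactors and other targets have none.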

How the data were processed

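Total RNA of 6 enterosphere samples, 3 with T3 and 3 without, was hybridised to whole-transcript mouse arrays. The authors deposited log2 expression values for 35556 probe sets, made with RMA and Partek 6.5 per the submitters' processing notes; the sources used here do not give their settings or genome build. RMA as usually run includes quantile normalization, which would hide a shift shared by most genes, and background signal shrinks changes at the dim end. The values carry no detection calls, and the number of arrays limits the precision.

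The platform annotation gave 1 symbol to 21789 probe sets, several to 1621 and none to 12146. Of the first kind the probe set of highest mean stood for each gene, which left 19938 genes, all 38 members among them, and 6 probe sets that name Notch4 with a second gene were not used. T3 minus control was fitted with limma 3.58.1 in R 4.3.3 (lmFit, eBayes), two-sided, p-values being adjusted by Benjamini-Hochberg across all genes. SE and 95% intervals are limma's. Differences within gene families used an exact permutation test over the 6 arrays. The fitting was tested on simulated data first. Members and lists were chosen with earlier results of these data known. All members are named, as are, of each further list, the called genes and some of the 4 of smallest p; markers, Klf9 and Hr serve as checks. Promoter windows were 250 bases. Alternatives were other scalings, filters on dim genes, other fits, the replicate block and leaving out each array. Arrays were compared for duplicates, and none was found (SD of within-group differences 0.137 or more).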

Additional observations from a re-analysis of the deposited data

How the results depend on the processing

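The 4 calls kept their direction in all 71 refits under the alternatives and their call in 48 of them. Many of these outcomes were fixed in advance. The replicate block, dim-gene filters, mean of probe sets, trend and robust fitting and the 0.10 threshold left the 4 changes as they were. Leaving out 1 array could not turn their sign, as their groups did not overlap. The 0.10 threshold had to keep all 4 calls, as its fit was the main one. Of the 34 other members, 11 changed sign in at least 1 alternative, each with a change of at most 0.10 in size. Called in at least 1 alternative were 9 of the 34. Among them, Notch1 was called with trend and robust fitting (limma, adjusted p = 0.0326) and Dll3 at adjusted p under 0.10. All 9 were called with array quality weights, which gave control replicate 1 a weight of 6.18 against 0.414 to 1.69 for the others. With those weights 2451 of all genes were called higher and 1097 lower, 6 members were higher and 7 lower, 12 further pathway genes higher and 11 lower, the members' median was 0.0022, Dll1 was at 0.037 and Numb at 0.027. With the replicate block 1 member was lower (Neurod4; Hey1 had adjusted p = 0.0532, Notch2 0.0661), and 1 further gene was higher and 2 lower. The deviations of same-numbered arrays from their group means had correlations of 0.179, 0.0171 and 0.000167. For differently numbered arrays the correlations ran from -0.176 to 0.114. These values do not settle whether the arrays were paired. In the main fit the numbers were not taken as pairs, as the design description names no block. Centring on the median of all probe sets turned the members' median to 0.0034, Rbpj to 0.0042, Maml1 to 0.020 and Id4 to 0.0025. Centring on the 75th percentile gave a median of -0.051, Neurog2 at -0.00012 and Id3 at -0.0056. Centring on the median or 75th percentile of the genes tested, added after seeing the data, gave medians of -0.053 and -0.057, Neurog2 at -0.0024 and -0.0063 and Id3 at -0.0079 and -0.012; Notch2 then had adjusted p = 0.0506 and 0.0450. The share of higher calls over all genes, 73.5%, was 65.5% to 81.5% under these scalings. Rbpj was at 0.011 with the mean of its probe sets and at 0.048 on its dim one. Further pathway genes higher numbered 4 without the dimmest 50% of genes, a filter that removes Neurod4, and 4 at adjusted p under 0.10. Without 1 array, members higher numbered 0 to 1 and lower 0 to 2, their median ran from -0.052 to -0.0058, and further genes higher numbered 0 to 2 and lower 2 to 3. In the same fits Dll4 ran from -0.040 to 0.12, Numb from -0.084 to 0.0074, Rbpj from -0.089 to 0.031, Maml1 from -0.11 to 0.065, Neurog1 from -0.054 to 0.23, Neurog2 from -0.0053 to 0.051, Neurod1 from -0.067 to 0.14, Neurod2 from -0.12 to 0.024, Id3 from -0.072 to 0.13 and Id4 from -0.086 to 0.016. The causes were not tested beyond what each setting changes by construction. With 3 arrays a group and no detection calls, a change of a dim gene can be missed.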
